A study of Homo sapiens with 24 samples.

Results

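The genes described are the 38 protein-coding genes whose symbol is SRSF followed by a number or HNRNP followed by letters, among 34496 genes listed in the 6 deposited tables. They comprise 12 SR protein genes and 26 heterogeneous nuclear ribonucleoprotein (hnRNP) genes. The choice rests on the symbols alone, after Ensembl identifiers were matched to them, and 64 pseudogenes with such symbols were left out. Of the 38 genes, 33 passed the filter on low values (a mean of at least 10 over the 6 libraries of a table) in the U87 comparisons and 34 in the LN229 comparisons. The others were SRSF12 and HNRNPCL2, HNRNPCL3 and HNRNPCL4, and in the U87 tables also HNRNPCL1, all of them at a mean below that limit or not listed.

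The study asked how m6A methylation of mRNA bears on resistance to temozolomide, an alkylating drug, in glioblastoma cells. Polyadenylated RNA of 24 libraries was sequenced from the established lines U87 MG and LN229 and from their resistant derivatives U87-R and LN229-R, whose medium held 50 µM temozolomide. STM2457, which inhibits the m6A methyltransferase METTL3, was given at 50 µM for 96 h and its solvent DMSO to the controls, in 8 groups of 3 replicates. The U87 pair was kept in EMEM (10% serum) and sequenced from TruSeq stranded libraries, the LN229 pair in DMEM (5% serum) and from Watchmaker libraries, so medium and kit cannot be told apart from the background of the line. Each of the 4 lines was thus measured in DMSO and in STM2457, and the resistant lines differ from their parents both by selection and by the drug in their growth medium, which cannot be told apart. The labels do not say that replicates were separate cultures, and if they were not, p-values reflect no more than the spread among these libraries, which may be technical.

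SR proteins carry RNA recognition motifs and a tail rich in arginine and serine, bind exonic enhancers and help the spliceosome to choose exons. The hnRNP proteins coat nascent RNA, often act against exon inclusion, and also take part in the export, localisation and decay of mRNA. Many genes of both families limit their own output by splicing in a poison exon that sends the transcript to nonsense-mediated decay. HNRNPC and HNRNPA2B1 are linked to m6A: the mark opens RNA structure and so exposes binding sites, and HNRNPA2B1 has been described as a nuclear reader of it.

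The 250 bases before the annotated start of 4 genes on which the results turn are printed here from RefSeq (GRCh38.p14), 5′ to 3′ on the strand of the gene, with motif matches in capitals. HNRNPF is shown because it rose with STM2457 in every line, HNRNPLL because it fell in every line, HNRNPD because it had the lowest adjusted p of the 2 families in both LN229 lines, and SRSF1 because its response differed most clearly between the backgrounds. All 4 lie on the minus strand, at chr10:43408858-43409107 for HNRNPF, chr2:38602929-38603178 for HNRNPLL, chr4:82373992-82374241 for HNRNPD and chr17:58007247-58007496 for SRSF1. GENCODE 29 places the outermost start further upstream for 3 of them, at 43409166 for HNRNPF, 38603586 for HNRNPLL and 82374503 for HNRNPD, so these windows lie within its gene intervals, and at 58007346 inside the window for SRSF1.
HNRNPF: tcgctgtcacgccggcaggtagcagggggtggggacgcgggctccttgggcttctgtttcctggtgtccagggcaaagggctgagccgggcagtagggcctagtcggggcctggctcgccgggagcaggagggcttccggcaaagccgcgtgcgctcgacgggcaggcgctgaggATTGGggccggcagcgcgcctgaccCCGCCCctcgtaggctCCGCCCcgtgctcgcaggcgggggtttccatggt
HNRNPLL: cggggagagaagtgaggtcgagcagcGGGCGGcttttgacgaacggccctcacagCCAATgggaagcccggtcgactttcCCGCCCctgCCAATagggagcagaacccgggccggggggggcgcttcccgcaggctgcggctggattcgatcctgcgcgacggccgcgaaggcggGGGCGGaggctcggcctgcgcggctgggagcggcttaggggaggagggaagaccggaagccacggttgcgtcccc
HNRNPD: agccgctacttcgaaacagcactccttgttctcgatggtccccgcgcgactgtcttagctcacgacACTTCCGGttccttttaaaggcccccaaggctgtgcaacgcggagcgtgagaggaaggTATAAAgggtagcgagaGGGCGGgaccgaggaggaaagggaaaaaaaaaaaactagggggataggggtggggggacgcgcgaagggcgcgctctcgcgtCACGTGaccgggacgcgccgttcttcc
SRSF1: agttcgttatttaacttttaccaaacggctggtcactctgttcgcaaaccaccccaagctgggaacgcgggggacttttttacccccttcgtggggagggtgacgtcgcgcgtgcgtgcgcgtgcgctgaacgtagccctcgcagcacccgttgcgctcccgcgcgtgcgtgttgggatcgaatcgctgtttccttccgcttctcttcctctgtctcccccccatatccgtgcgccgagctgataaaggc
The 7 motifs below were searched on both strands, with overlaps between them allowed. They are the E-box CACGTG, the GC box GGGCGG, the CCAAT box CCAAT, the ETS motif CCGGAAGT, the NRF1 palindrome, the cyclic AMP response element TGACGTCA and the TATA box TATAAA. The HNRNPF stretch holds 2 GC boxes and 1 CCAAT box, that of HNRNPLL 3 GC boxes and 2 CCAAT boxes, and that of HNRNPD 1 match each of the E-box, the GC box, the ETS motif and the TATA box. None of the 7 motifs was found in the SRSF1 stretch, which says only that these letters are not in this window. RefSeq windows of 300 bases, 250 before and 50 after the start, were matched for 34 of the 38 genes. The E-box was in 7 of these 34 windows (20.6%) and in 7.43% of all 27305 windows, the GC box in 21 (61.8%) against 44.6%, and the CCAAT box in 17 (50.0%) against 35.7%. The ETS motif was in 3 windows (8.82% against 4.44%), the TATA box in 5 (14.7% against 11.95%), and the NRF1 palindrome and the cyclic AMP response element in 0 (1.36% and 1.98% of all windows). The median GC content was 63.5% over the 34 windows and 58.3% over all, so the shares of GC-rich motifs are not compared at equal base composition. The 7 windows with an E-box belong to HNRNPA3, HNRNPD, HNRNPDL, HNRNPH2, HNRNPH3, HNRNPM and HNRNPUL1.

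Normalized counts per library summed to 21232924 to 25349361 in the U87 tables and to 24101385 to 28716587 in the LN229 tables. Tables disagreed on which LN229 controls are which. Of the 6 columns in the table of LN229-R against LN229, 0 had their own name's column as nearest match among the STM2457 tables, and 6 had that of the other line under the same replicate number (SD of the log2 ratio 0.0579 to 0.0619 over genes with a mean of at least 200), while all 6 U87 columns matched by name. The direction of the LN229 resistance comparison, and which LN229 line an STM2457 effect belongs to, are therefore given as labelled. In the STM2457 tables the second LN229-R DMSO library stood apart, where ribosomal protein genes took 4.25% of all counts, against 2.58 and 2.73% in its 2 replicates, and the counts that lead the LN229 results are also given without the libraries numbered 2. VIM, CD44 and FN1 were abundant in all lines, S100B and SOX2 were abundant in LN229 and LN229-R and near or at 0 in the U87 lines, and GFAP was low in all. Of 14 markers of other cell types, CD3E was not listed in any STM2457 table, and PTPRC, EPCAM, KRT5, CDH1 and RBFOX3 were at most 10.1 normalized counts or not listed. The summed level of the 14 ran from 9935 to 15366 in U87 lines in DMSO and from 11561 to 20683 in STM2457, nearly all of it CD68. It ran from 1111 to 1468 in LN229 lines in DMSO and from 683 to 1140 in STM2457. By the mean, SNAP25 was its largest part in DMSO and CD68 in STM2457. The mean of SNAP25 was 893 in DMSO and 259 in STM2457 in LN229 and 1237 and 354 in LN229-R. That of CD68 was 80.3 and 441 in LN229 and 66.3 and 431 in LN229-R. In STM2457 library 3, however, SNAP25 stood above CD68, at 270 and 232 in LN229 and 410 and 213 in LN229-R. CD68 was highest in STM2457 library 2 (678 in LN229 and 721 in LN229-R). The part of these markers in the results was not tested. In such bulk RNA, fewer cells of a kind and less RNA per cell cannot be told apart.

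Levels of different genes were compared per kilobase of the median annotated coding transcript, which short annotated transcripts can inflate. This length is 832 bases for HNRNPA1, 741.5 for HNRNPH1 and 765 for HNRNPD, but 3518 for HNRNPA2B1. Their longest coding transcripts have 4121, 3667, 3033 and 3664 bases. By the longest transcript HNRNPA2B1 would stand above HNRNPA1 in LN229, so the order below holds for the median length only. In LN229 cells in DMSO, HNRNPA1, a repressor of exons, stood highest of the 2 families on this measure, at 38281 normalized counts per kb. HNRNPH1 followed at 18018 and HNRNPA2B1 at 10299. In U87 MG cells the first was again HNRNPA1 at 24620, then HNRNPH1 at 10946 and HNRNPD at 6735. The SR protein gene with the highest level per kb was SRSF2 in LN229 (7597) and SRSF5 in U87 MG (5711). SRSF8, a relative of SRSF2 whose reads may be shared with it, was the lowest SR protein gene tested in both (188 and 45.2).

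Both families took a smaller share of the library with STM2457 in the LN229 lines. In LN229 the SR protein genes held 0.255 ± 0.00623% of all normalized counts in DMSO and 0.174 ± 0.0133% in STM2457, and the hnRNP genes held 0.928 ± 0.0327% and 0.658 ± 0.0417% (mean ± SD, n = 3). In LN229-R the SR share was 0.246 ± 0.025% and 0.169 ± 0.0161%, and the hnRNP share 0.872 ± 0.113% and 0.625 ± 0.0715%. In neither line did the DMSO and STM2457 libraries overlap in either share. In U87 MG the shares were 0.129 ± 0.00475% and 0.124 ± 0.00506% for SR genes and 0.578 ± 0.00385% and 0.569 ± 0.0132% for hnRNP genes, and in U87-R 0.126 ± 0.00634% and 0.121 ± 0.00681%, and 0.541 ± 0.0218% and 0.529 ± 0.0211%. In both U87 lines the libraries of the 2 treatments overlapped in both shares. Within each of the 3 like-numbered pairs of U87-R, however, STM2457 was the lower, with SR shares of 0.131 and 0.128, 0.128 and 0.121, and 0.119 and 0.114% in DMSO and STM2457 and hnRNP shares of 0.556 and 0.547, 0.551 and 0.536, and 0.516 and 0.506%. Without division by the library total, the summed normalized counts overlapped less in the U87 lines. In U87-R the hnRNP sums were 122548 to 122891 in DMSO and 115666 to 116087 in STM2457. The SR sums there were 28225 to 28996 and 26084 to 27115. In U87 MG the SR sums were 31365 to 31979 and 28812 to 29878, and the hnRNP sums overlapped. The shares and sums are a description and were not tested.

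**Figure D1:**
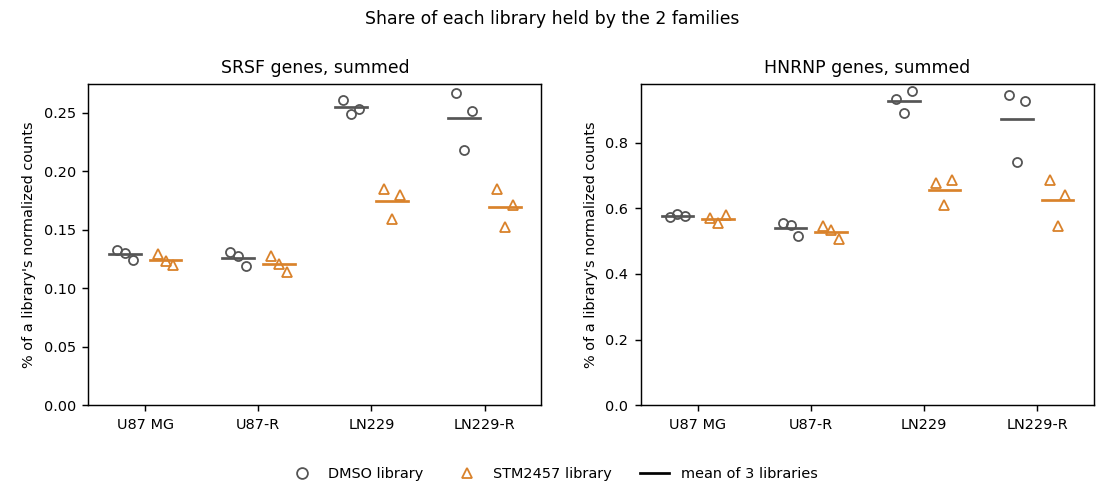
Percent of each library's normalized counts (y axis, from 0) held by all SRSF genes (left) and all HNRNP genes (right) in DMSO libraries (circles) and STM2457 libraries (triangles) of the 4 lines, with bars for the mean of 3 libraries. In LN229 and LN229-R every STM2457 library lies below every DMSO library, and in U87 MG and U87-R the points of the 2 treatments overlap.

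In LN229 cells, STM2457 lowered most genes of both families. A gene was said to rise, fall or pass where limma gave an adjusted p (Benjamini-Hochberg over all genes tested in that table) under 0.05, and changes are log2 differences of the value plus 1 with their standard error (SE). Of 34 genes tested 26 fell and 1 rose, in a comparison where 49.7% of 17107 genes passed, 23.6% lower and 26.2% higher. The fall was seen in 8 of 11 SR protein genes and 18 of 23 hnRNP genes, with log2 changes of -1.14 to -0.27. The median over the 34 genes was -0.56, beside 0.00 over all genes tested. For 28 of the 34, every STM2457 library was below every DMSO library, beside 29.9% of all genes tested. For 2 every one was above (30.7% of all). Without the libraries numbered 2, 27 fell and 1 rose (background 46.1%). Of the 26, 22 passed under each of 16 other settings.

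HNRNPD (AUF1), which binds AU-rich elements of short-lived mRNAs, stood at 3807, 3259 and 3473 normalized counts in STM2457 and at 6798, 6399 and 6972 in DMSO. The groups were far apart, and the log2 change was -0.94 (SE 0.09, adjusted p 8.4e-05). HNRNPAB, an A/B-type protein of mRNA transport, had 4691, 3706 and 4369 in STM2457 and 7233, 6869 and 7279 in DMSO, again without overlap, a change of -0.75 (SE 0.10, adjusted p 0.00054). HNRNPH1, which binds runs of G and sets alternative exons, had 7566, 7336 and 7694 in STM2457 and 14601, 12522 and 12957 in DMSO. Every treated library was below every control, with a change of -0.82 (SE 0.09, adjusted p 0.00019).

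HNRNPL, which binds CA repeats, and its paralogue HNRNPLL, known for silencing exons of CD45 in lymphocytes, fell together. HNRNPL had 4873, 4097 and 4535 in STM2457 and 8201, 7560.1 and 8106 in DMSO, a change of -0.82 (SE 0.09, adjusted p 0.00020). HNRNPLL had 535, 453 and 586 and 1035, 1059 and 1092, a change of -1.02 (SE 0.11, adjusted p 0.00021). Neither pair of groups overlapped. HNRNPUL1, a relative of the nuclear scaffold protein hnRNP U with a part in DNA end resection, had 5477, 4733 and 5719 in STM2457 and 10394, 8911 and 10214 in DMSO, a change of -0.89 (SE 0.10, adjusted p 0.00027), also without overlap.

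The 8 SR protein genes that fell lay close together: SRSF6 -0.70, SRSF1 -0.63, SRSF2 -0.61, SRSF11 -0.61, SRSF10 -0.59, SRSF7 -0.58, SRSF3 -0.56 and SRSF9 -0.54 on the log2 scale. SRSF1, the founding member of the family, had 6391, 5699 and 6752 in STM2457 and 10112, 9046 and 9906 in DMSO, with no overlap (SE 0.09, adjusted p 0.00094). SRSF8 (-0.16), SRSF5 (-0.16) and SRSF4 (0.06) did not pass. The other hnRNP genes that fell were HNRNPA1 -0.70, HNRNPA3 -0.55, HNRNPR -0.53, HNRNPH3 -0.52, HNRNPU -0.49, HNRNPA2B1 -0.46, HNRNPUL2 -0.40, HNRNPDL -0.35, HNRNPK -0.35 and HNRNPM -0.27. HNRNPA1L2 (-1.14) and HNRNPA1L3 (-0.88) also fell, but they are near copies of HNRNPA1 and reads of the 3 genes may have been divided between them. Those that did not pass were HNRNPC, HNRNPH2 (0.22), HNRNPA0 (-0.12) and the low HNRNPCL1.

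HNRNPF was the exception in direction. It is a close relative of HNRNPH1 and also binds G runs, and it had 8803, 7036 and 8891 normalized counts in STM2457 and 4886, 4527 and 5102 in DMSO. All 3 treated libraries were above all 3 controls, with a log2 change of 0.76 (SE 0.11, adjusted p 0.00078).

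**Figure D2:**
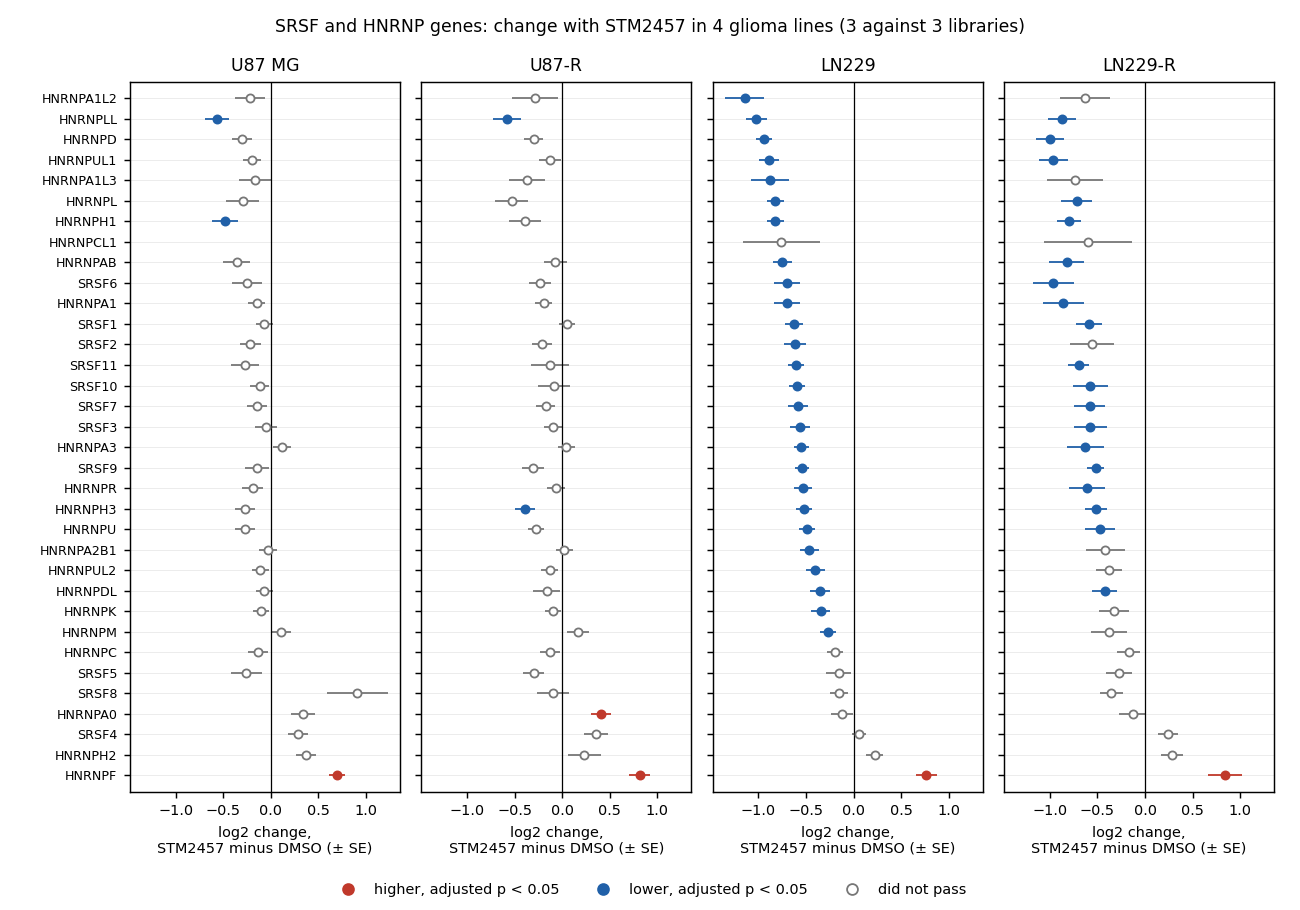
Log2 change with STM2457 (x axis, STM2457 minus DMSO, ± SE) of each SRSF and HNRNP gene tested (y axis, ordered by the change in LN229) in the 4 lines, 3 against 3 libraries. Filled points passed an adjusted p of 0.05 (blue lower, red higher): 26 lower and 1 higher in LN229, 19 and 1 in LN229-R, 2 and 1 in U87 MG, 2 and 2 in U87-R, with HNRNPF red in each panel.

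In LN229-R cells the picture was similar with more spread between libraries. Of 34 genes 19 fell and 1 rose, where 38.6% of 17063 genes passed, 17.1% lower and 21.5% higher. The fall covered 7 of 11 SR protein genes and 12 of 23 hnRNP genes, with log2 changes of -0.997 to -0.42, and the median over the 34 was -0.57 beside -0.02 over all genes. All 19 had also fallen in LN229, and 7 genes fell in LN229 alone of the 2 lines (the test of the difference between the lines is given below). For 23 genes every STM2457 library was below every DMSO library, against 25.6% of all genes, and for 2 above (27.5% of all). Like-numbered libraries deviated together in this table, and with the replicate as a block 26 genes fell and 2 rose (background 49.5%). Leaving out the DMSO library 1 or 3 or STM2457 library 3 gave 12 or 13 calls in all, while leaving out both libraries numbered 2 gave 26 lower and 2 higher (background 48.6%).

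HNRNPD again had the lowest adjusted p, with 3940.2, 3043 and 3513 in STM2457 and 7347, 5949.6 and 7670.5 in DMSO, a change of -0.997 (SE 0.14, adjusted p 0.0014). HNRNPUL1 had 5776, 4717 and 5370.4 and 11480.1, 8468 and 11129.6, a change of -0.96 (SE 0.15, adjusted p 0.0021). In both genes the second DMSO library was the lowest control, yet it stood above every treated library. HNRNPH1 had 8494, 7817 and 8547 in STM2457 and 16283, 12704 and 14401 in DMSO, -0.80 (SE 0.13, adjusted p 0.0025). HNRNPLL had 726, 565 and 702 and 1213, 1056 and 1371, -0.87 (SE 0.15, adjusted p 0.0030). Neither overlapped between treatments.

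Among SR protein genes, SRSF11, a divergent SR protein, had 6114, 5831 and 5953 in STM2457 and 10834, 9181 and 9089.7 in DMSO, a change of -0.70 (SE 0.11, adjusted p 0.0025). SRSF9, one of the smallest SR proteins, had 2721, 2631 and 2704 and 3881, 3724 and 3924, -0.52 (SE 0.09, adjusted p 0.0034). Both were lower in 3 of 3 treated libraries than in any control. The other SR protein genes that fell were SRSF6 -0.96, SRSF1 -0.59, SRSF7 -0.58, SRSF10 -0.58 and SRSF3 -0.57. The other hnRNP genes were HNRNPA1 -0.86, HNRNPAB -0.82, HNRNPL -0.72, HNRNPA3 -0.63, HNRNPR -0.61, HNRNPH3 -0.52, HNRNPU -0.47 and HNRNPDL -0.42. HNRNPF rose here as well, from 5345, 3887 and 4903 in DMSO to 9733, 6731 and 8951 in STM2457, by 0.84 (SE 0.18, adjusted p 0.0075). SRSF2 (-0.56) missed the threshold at an adjusted p of 0.089, and its second DMSO library lay below its first STM2457 library.

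In U87 MG cells few of these genes passed with STM2457, a share near that of all genes. Of 33 tested 1 rose and 2 fell, all hnRNP genes, where 13.6% of 16407 genes passed, 7.86% higher and 5.72% lower. In limma 11 of the 33 had an unadjusted p under 0.05. With all libraries scaled to equal totals 3 rose and 1 fell (background 14.8%), and over all genes the split went from 1289 higher and 939 lower to 1662 and 760. The median over the 33 genes was -0.15 beside -0.01 over all genes, and 26 of the 33 changes were negative. In 11 of the 33 genes every STM2457 library was below every control, a larger share than the 16.5% of all genes. In 5 every one was above, beside 18.3% of all genes. HNRNPF had 8693, 8783 and 8688 in STM2457 and 5704, 5013 and 5472 in DMSO, a wide gap, with a change of 0.69 (SE 0.09, adjusted p 0.0026). HNRNPLL fell from 531, 534 and 589 to 389.6, 388 and 338, a change of -0.57 (SE 0.13, adjusted p 0.020), without overlap. HNRNPH1 went from 8968, 8615 and 6766 in DMSO to 6662, 5528 and 5177 in STM2457, where the highest treated library lay just below the lowest control. Its change of -0.48 (SE 0.14) only just passed (adjusted p 0.0495) and did so under 6 of 15 other settings, and not without STM2457 library 2 or 3 or DMSO library 1 or 2 (adjusted p 0.0031 to 0.16 over the settings). HNRNPLL passed under 10 of 15, and not without STM2457 library 2 or 3 or DMSO library 2 or 3. HNRNPF passed under all 15. No SR protein gene passed. Of the 11 SR protein genes tested, 2 had an unadjusted p under 0.05: SRSF8 (0.91, adjusted p 0.091) and SRSF4 (0.29, adjusted p 0.099).

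In U87-R cells 2 genes rose and 2 fell of 33, again hnRNP genes only, where 14.7% of 16185 genes passed, 8.46% higher and 6.2% lower. These 4 of 33, from the main fit without pairing, lie near the share of all genes, and 11 had an unadjusted p under 0.05 in limma. Like-numbered libraries deviated together here, and with the replicate as a block 4 rose and 11 fell (background 29.6%), among them the SR protein genes SRSF2, SRSF4, SRSF5, SRSF6 and SRSF9. Equal totals gave 3 higher and 1 lower (background 15.8%), and equal upper quartiles 2 higher and 5 lower (background 15.2%). The median over the 33 genes was -0.13 beside 0.00 over all genes. Every STM2457 library was below every control in 13 of the 33 genes, a larger share than the 16.9% of all genes. In 3 every one was above, a smaller share than the 18.4% of all genes. HNRNPF had 6517, 6524 and 7412 in STM2457 and 3587, 3707 and 4359.7 in DMSO, without overlap, a change of 0.81 (SE 0.11, adjusted p 0.0025). HNRNPLL had 322, 265 and 347 and 455, 447 and 487, -0.58 (SE 0.15, adjusted p 0.031). HNRNPA0, an A/B-type protein that binds AU-rich elements, rose from 2613, 2529.8 and 2372 to 3053, 3266 and 3692, by 0.41 (SE 0.10, adjusted p 0.032). HNRNPH3, the shortest of the H type, fell from 3159, 3028 and 2828 to 2404, 2391 and 2075, a change of -0.39 (SE 0.10, adjusted p 0.034). The groups of all 4 genes were apart, but outside HNRNPF the calls were not firm: HNRNPLL and HNRNPA0 passed under 8 of 15 other settings and HNRNPH3 under 7. The replicate block was among the settings in which they passed, and the fits with 1 library left out had no block. Leaving out any 1 DMSO library ended the calls of HNRNPLL and HNRNPA0, as did STM2457 library 1 or 2 for HNRNPLL and 2 or 3 for HNRNPA0. That of HNRNPH3 was lost without any 1 STM2457 library or DMSO library 1 or 2.

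**Figure D3:**
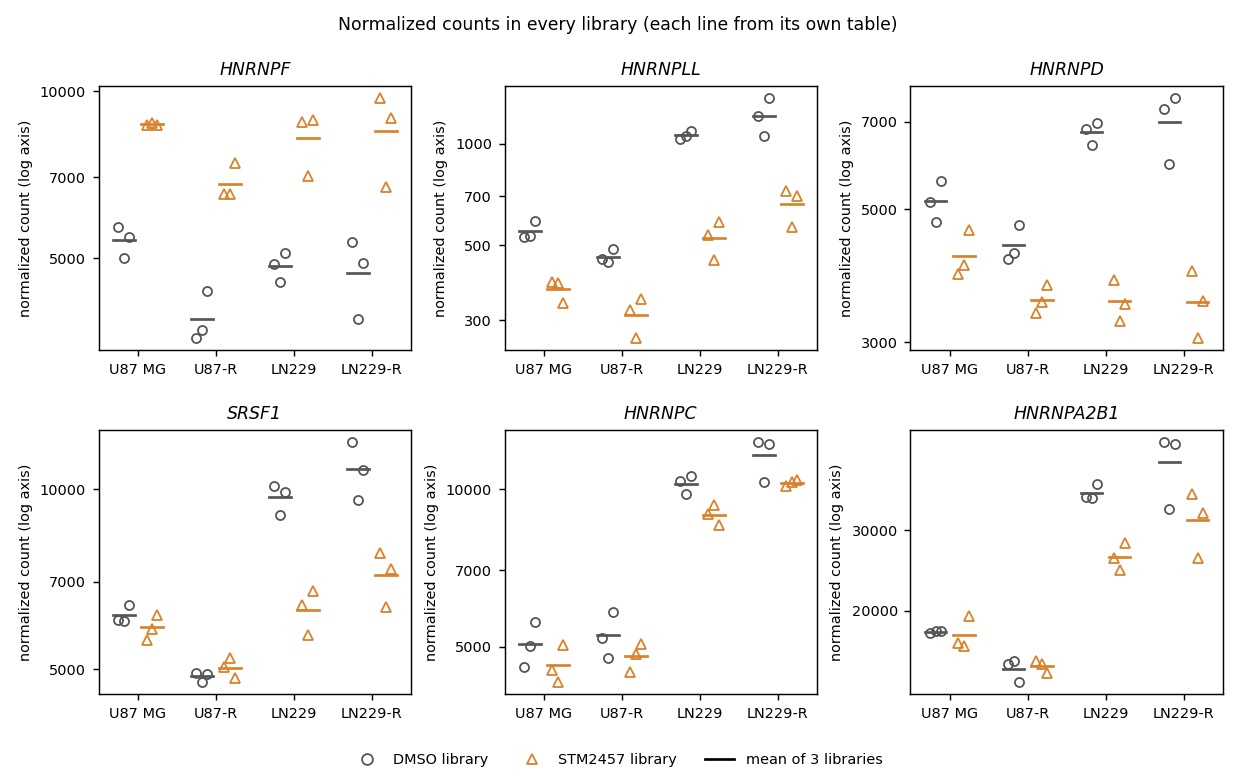
Normalized counts (y axis, log scale) of 6 genes in every DMSO library (circles) and STM2457 library (triangles) of the 4 lines, with bars for the mean of 3. HNRNPF is higher and HNRNPLL lower in STM2457 without overlap in each line, SRSF1 is apart in the LN229 lines only, and HNRNPC and HNRNPA2B1 overlap between treatments in U87 MG, U87-R and LN229-R.

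Across the lines, HNRNPF was the 1 gene of the families that rose in all 4 and HNRNPLL the 1 that fell in all 4. Signs of change agreed between LN229 and U87 MG, which share no library, for 29 of 33 genes, beside 67.0% of all genes tested in both. Between U87-R and LN229-R they agreed for 28 of 33, beside 67.1% of all genes. Most changes of the families were negative in each line, 26 of 33 in U87 MG, 25 of 33 in U87-R and 31 of 34 in both LN229 and LN229-R. Signs of such genes agree often even without a match gene by gene, so the share of all genes is not a like measure. These are counts over genes that may move together, with no test.

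HNRNPC, the reader of the m6A switch, did not pass in any line. In LN229 it had 8983, 9338 and 8534 in STM2457 and 10360.1, 9798 and 10619 in DMSO, where the groups did not overlap but the change of -0.20 (SE 0.08) missed the threshold (adjusted p 0.073). In LN229-R the values were 10136, 10345 and 10406 and 12339, 10332 and 12211, -0.17 (SE 0.12, adjusted p 0.28). Without the libraries numbered 2 it did pass in both lines, at -0.26 in each (adjusted p 0.032 and 0.026). In LN229 it also passed without the second STM2457 library alone and, with all libraries, under equal totals and under equal upper quartiles (adjusted p 0.028 to 0.046 over these 4 settings), so its call there turned on scaling as well as on single libraries. In U87 MG it had 4512, 4276 and 5028 and 4575, 5008 and 5576, -0.13 (SE 0.11, adjusted p 0.45). In U87-R it had 4467, 4848 and 5059.6 and 5185, 4756 and 5823, -0.13 (SE 0.11, adjusted p 0.45), with overlap in both U87 lines.

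HNRNPA2B1, the other gene tied to m6A, fell in LN229, from 35482, 35261 and 37949.5 in DMSO to 26082, 24605 and 28168 in STM2457, a change of -0.46 (SE 0.10, adjusted p 0.0063). In LN229-R it had 35985, 26038 and 32656 in STM2457 and 46901, 33477 and 46372 in DMSO, where the second control lay below the first treated library. The change there was -0.42 (SE 0.21, adjusted p 0.14). It passed with the replicate block (adjusted p 0.039) and without the libraries numbered 2 (-0.44, adjusted p 0.0071). In U87 MG the values were 16994, 16709.8 and 19454 and 17878, 18045 and 18097, -0.03 (SE 0.10, adjusted p 0.89), and in U87-R 15528, 15250.4 and 14575 and 15272, 15489.8 and 13948, 0.02 (SE 0.09, adjusted p 0.90). The groups overlapped in both U87 lines.

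Whether the response to STM2457 differed between lines was tested directly, in a joint fit of the tables. Between U87-R and U87 MG 0 of 33 genes passed in limma, with 1 at an unadjusted p under 0.05, and 0 of 15680 genes passed overall (0.0%). Between LN229-R and LN229 0 of 34 passed, with 0 at an unadjusted p under 0.05, and 1 of 16511 genes passed overall (0.00606%). Between the backgrounds, the mean effect in LN229 and LN229-R against that in U87 MG and U87-R, 19 of 33 genes were lower in the LN229 background and 0 higher, where 34.7% of 13363 genes passed, 15.6% lower and 19.1% higher. The median difference over the 33 was -0.44 beside -0.01 over all genes. With equal totals 27 were lower (background 36.8%), and over all genes the split went from 2558 higher and 2081 lower to 2198 and 2715. Without the LN229 libraries numbered 2, 17 were lower (background 31.7%), and with the replicate as a block 26 were lower (background 44.9%).

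SRSF1 had the lowest adjusted p. The difference between its responses was -0.60 (SE 0.09, adjusted p 4.6e-05), from changes of -0.63 in LN229 and -0.59 in LN229-R against -0.07 in U87 MG and 0.05 in U87-R. In U87 MG the libraries had 5596, 5845 and 6169 in STM2457 and 6042, 6028 and 6392 in DMSO, with overlap. For HNRNPUL1 the difference was -0.76 (SE 0.12, adjusted p 5.1e-05), with -0.20 in U87 MG and -0.13 in U87-R. For HNRNPD it was -0.67 (SE 0.11, adjusted p 7.5e-05), with -0.30 and -0.30 in the U87 lines, neither past the threshold. HNRNPA3, an A/B-type protein of mRNA trafficking, differed by -0.67 (SE 0.13, adjusted p 0.00033), with -0.55 and -0.63 in the LN229 lines against 0.12 and 0.04. HNRNPLL differed as well (-0.37, SE 0.13, adjusted p 0.030), falling further in the LN229 background. For HNRNPF the difference was 0.05 (SE 0.13, adjusted p 0.81), for HNRNPC -0.05 (SE 0.10, adjusted p 0.70), and for HNRNPH1 -0.37 (SE 0.15, adjusted p 0.052), and none of these passed. Kit and medium changed with the background and cannot be told apart from it.

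**Figure D4:**
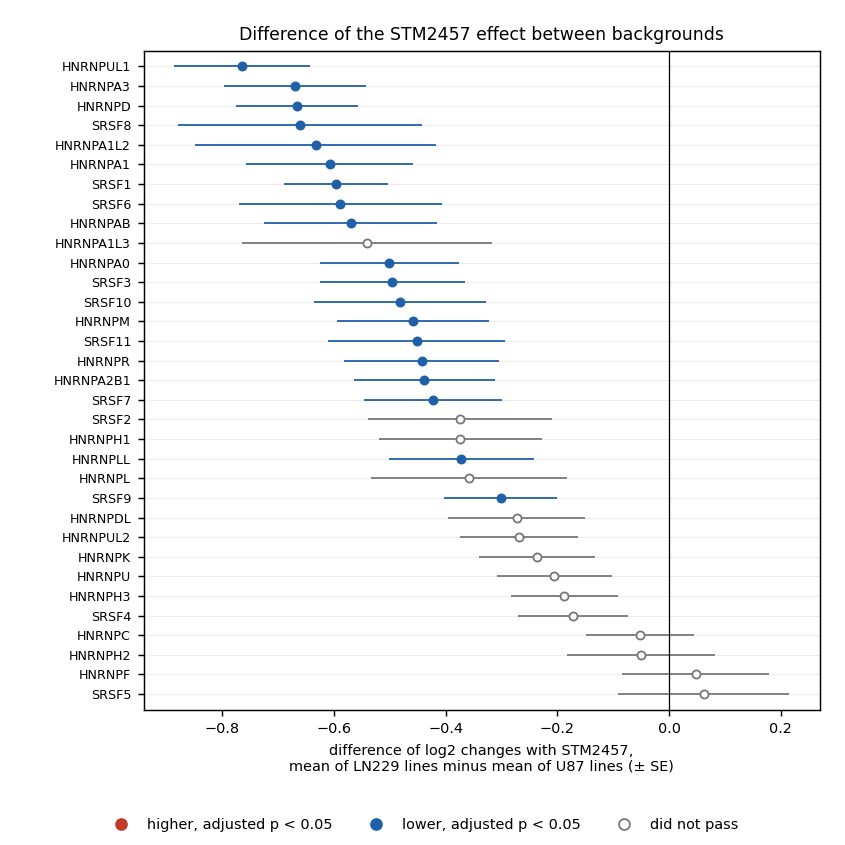
Difference of the log2 change with STM2457 (x axis, mean of LN229 and LN229-R minus mean of U87 MG and U87-R, ± SE) for the 33 genes tested in all 4 lines (y axis, ordered by the difference). Blue points, 19 genes, passed an adjusted p of 0.05 as lower in the LN229 background, and open points did not pass.

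Genes that work with these families were counted from lists, against the shares of all genes given above. Of 14 hnRNP proteins and relatives under other symbols, 12 fell and 1 rose in LN229, led by RBMX (-0.89), EWSR1 (-0.60) and PCBP2 (-0.51), with a median of -0.51. In LN229-R 11 fell, with CIRBP (-0.65), PCBP2 (-0.65) and TAF15 (-0.54) first by adjusted p. PCBP2, which binds C-rich RNA, also fell in U87 MG (-0.44) and U87-R (-0.37), and PTBP1, the repressor of neural exons, fell in U87 MG (-0.37). Of 18 SR-related proteins, kinases and carriers of SR proteins, 6 fell and 4 rose in LN229 and 6 fell and 3 rose in LN229-R. These 10 and 9 genes of 18 lie near the shares of all genes that passed (49.7 and 38.6%), and the list's median was -0.07 and -0.12. In U87 MG and U87-R 0 of the 18 passed in limma, with 4 and 2 at an unadjusted p under 0.05. Among the kinases that phosphorylate SR proteins, CLK2 (-0.55 and -0.52) and CLK4 (-0.73 and -0.93) fell in LN229 and LN229-R, and SRPK1 rose (0.90 and 0.70). The other kinases of the list are not described here, so these give no pattern over kinases. TRA2B, an SR-like exon activator, fell in LN229 (-0.57).

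Of 30 genes of core splice site recognition, 22 fell and 2 rose in LN229, with a median of -0.44, and 17 fell and 2 rose in LN229-R. SF3A1 (-0.82), SF3B3 (-0.88) and SNRPD1 (-1.01) had the lowest adjusted p in LN229, and U2AF1 (-0.99, adjusted p 0.0022), PRPF3 (-0.63) and SF3A1 (-0.75) were among the first in LN229-R. In U87 MG 1 of the 30 passed and in U87-R 3, with SF3B5 higher in both (0.53 and 0.51) and U2AF1 lower in U87-R (-4.89, SE 0.82, adjusted p 0.0064). U2AF1 has a near-identical copy under another Ensembl identifier, between which reads may have been divided, so both of its changes are uncertain. Of 15 other splicing regulators tested, 11 fell and 2 rose in LN229 and 8 fell and 3 rose in LN229-R, first among them RBM10 (-0.60 and -0.56), RBM39 (-0.61 and -0.69) and SFPQ (-0.70 and -0.88). In U87 MG 0 of the 15 passed in limma, with 3 at an unadjusted p under 0.05, and in U87-R 2 passed.

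Between the resistant and parental U87 lines in DMSO, no gene of the families passed. The count was 0 of 33 in limma, with 3 at an unadjusted p under 0.05, where 4.27% of 16306 genes passed, 3.13% higher and 1.15% lower. For 6 genes every U87-R library was below every U87 MG library, and for 0 it was above, beside 10.8 and 12.6% of all genes. The median was -0.05 beside -0.01 over all genes. SRSF8 had the largest change, with 231, 291 and 247 in U87-R and 171, 92 and 237 in U87 MG, 0.71 (SE 0.31, adjusted p 0.29). Its second U87 MG library was far below the other 2, and the groups overlapped. SRSF11 had 2101, 1700.2 and 1371 in U87-R and 2546, 2453 and 1771 in U87 MG, -0.39 (SE 0.19, adjusted p 0.33), also with overlap. The 3 genes with an unadjusted p under 0.05 were HNRNPF (-0.33, adjusted p 0.14), SRSF1 (-0.22, adjusted p 0.21) and SRSF8, named after their values were seen. The DMSO libraries of this comparison also serve as controls of the STM2457 comparisons.

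In the comparison labelled LN229-R against LN229, 2 of 34 genes passed, both SR protein genes and both lower, where 9.25% of 17136 genes passed, 3.65% lower and 5.6% higher. The groups did not overlap in 2 genes that were lower and 3 that were higher, beside 14.5 and 16.3% of all genes. The median was 0.02 beside -0.01 over all genes. SRSF11 had 7358, 6770.4 and 6711 in libraries labelled LN229-R and 10916, 9205 and 9130.1 in libraries labelled LN229, -0.49 (SE 0.10, adjusted p 0.020). SRSF8 had 896, 983 and 857 and 1448, 1315 and 1118, -0.50 (SE 0.12, adjusted p 0.035). The groups of both genes were apart, and with the names of the STM2457 tables the same libraries give 0.49 and 0.50, the opposite sign. Leaving out any 1 of the 3 libraries labelled LN229-R left 0 calls, leaving out the first labelled LN229 left 1, and leaving out the second gave 3. With the replicate block, whose like-numbered libraries deviated together, and with equal upper quartiles, HNRNPAB also passed, as higher (background 15.2 and 9.21%). It had 8190.3, 7753 and 8228 in libraries labelled LN229-R and 6509, 4917 and 6654 in those labelled LN229 (0.43, adjusted p 0.068 without the block). Over all genes, equal totals moved the split from 959 higher and 626 lower to 1187 and 471.

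**Figure D5:**
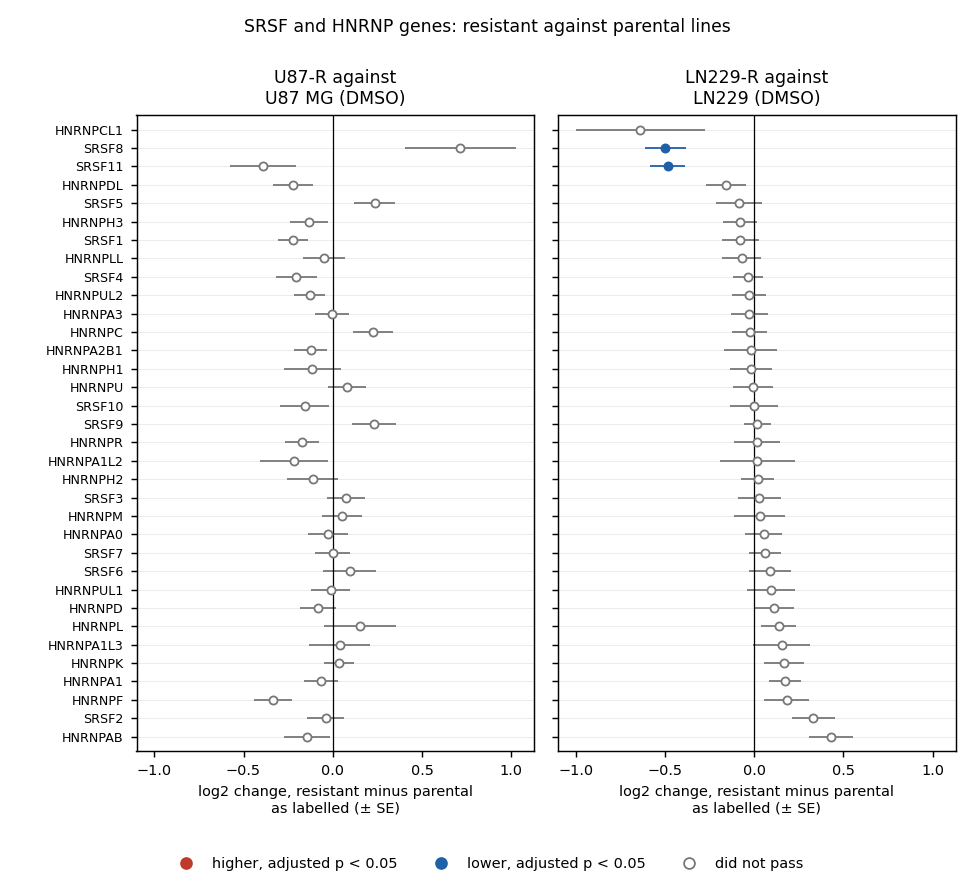
Log2 difference between resistant and parental lines in DMSO (x axis, resistant minus parental as labelled, ± SE) of each SRSF and HNRNP gene tested (y axis, ordered by the LN229 value), 3 against 3 libraries. No gene passed in the U87 panel, and in the LN229 panel, whose direction depends on which table's names are right, SRSF8 and SRSF11 passed as lower.

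Transcript annotation (GENCODE 29) shows features that the choice of genes did not use. The 11 SR protein genes tested in LN229 all have an annotated transcript of the nonsense-mediated decay type, as do 13 of the 23 hnRNP genes, 24 of 34 (70.6%) in all, beside 42.4% of 13110 protein-coding genes tested there. The shared 24 include SRSF4, SRSF5 and SRSF8, which did not pass with STM2457. A gene-level count sums productive and decay transcripts, so a shift between them is not measured here. The letters GGACT, a common context of m6A, occurred at a median of 0.824 per kb in the longest coding transcript of the 34 genes and 0.931 per kb in that of all protein-coding genes tested. HNRNPF has 2 such sites in its longest coding transcript, HNRNPLL and HNRNPD 4 each, SRSF1 2 and HNRNPA2B1 0. Reads of processed pseudogenes of HNRNPA1 amounted to 0.241 to 0.522% of HNRNPA1 and its pseudogenes together in the LN229 tables and 1.82 to 2.78% in the U87 tables.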

How the data were processed

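The authors deposited 6 tables of normalized counts, a signal per gene, each holding the 6 libraries of 1 comparison scaled on their own, so levels were compared only within a table. Per the submitters' processing notes the tools named are STAR 2.7.11a, Trimmomatic 0.39, DESeq2 and Salmon 1.4.0 (build GRCh38), in no stated order, and no aligner setting or annotation release is given in the sources used here. Whole reads could not be recovered, since scaling differed between genes, so the depth behind each value is unknown, no count test was run, and fold changes are on the scale of log2 of the value plus 1, which understates changes of low genes. Of 34496 identifiers, 32642 matched a symbol. No deposited column lacked a sample (0).

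For each comparison limma 3.58.1 (R 4.3.3), with a variance trend, was run on log2 values (pseudocount 1) of the genes averaging 10 or more in that table, and p-values were adjusted by Benjamini-Hochberg over all genes tested. Differences between responses came from a joint fit. The fits were tested on simulated data. Tables and plots used Python 3.11.15 with pandas 2.3.3, numpy 2.4.6 and matplotlib 3.10.9. The members and gene lists were chosen with earlier results of these data known. Values of every library are given for HNRNPC and HNRNPA2B1 with STM2457, and per comparison for up to 6 genes that passed with the lowest adjusted p, or, where fewer than 2 passed, the 2 genes with a mean of at least 100 and the largest change; for differences up to 4 genes, and for each related list up to 3 are named. HNRNPF in the LN229 lines, SRSF1, SRPK1, CLK2 in LN229-R, SF3B5 and the values of HNRNPAB in the resistance comparison were added after their values were seen.

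The main fits, and the figures drawn from them, did not pair libraries by replicate number. Such pairing entered only with the replicate block, as an alternative. Like-numbered libraries were said to deviate together where r was over 0.1 in every pair. This held for LN229-R against LN229 (0.114 to 0.204) and for STM2457 in U87-R (0.114 to 0.298) and LN229-R (0.102 to 0.321), and not for the other comparisons. Alternatives were the replicate block, scaling to equal totals or to equal upper quartiles, a constant prior variance (no trend), pseudocounts of 0.5 and 5, no filter or a minimum mean of 50, a threshold of 0.01, each library left out in turn, and the LN229 names exchanged. Leaving out the LN229 libraries numbered 2 was chosen after seeing the data.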

Additional observations from a re-analysis of the deposited data

Results flagged for a closer look

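The response to STM2457 differed between the LN229 and U87 backgrounds for 19 of 33 genes in the test of the difference itself (limma, adjusted p under 0.05), all lower in the LN229 background. The difference of log2 changes was -0.60 for SRSF1, -0.50 for SRSF3, -0.59 for SRSF6, -0.42 for SRSF7, -0.66 for SRSF8, -0.30 for SRSF9, -0.48 for SRSF10 and -0.45 for SRSF11. Among A/B-type hnRNP genes it was -0.50 for HNRNPA0, -0.61 for HNRNPA1, -0.44 for HNRNPA2B1, -0.67 for HNRNPA3 and -0.57 for HNRNPAB, and it was -0.63 for HNRNPA1L2, whose reads may be shared with HNRNPA1. HNRNPA0 changed by 0.34 in U87 MG and 0.41 in U87-R, and by -0.12 in LN229 and -0.13 in LN229-R. Of these lines it passed in U87-R only, as higher. The value of SRSF8 rests largely on U87 MG, where its change was 0.91 (0.53 to 1.22 over the alternatives) beside -0.10 in U87-R, -0.16 in LN229 and -0.35 in LN229-R, and it did not pass in any of the 4. The remaining hnRNP genes were HNRNPD at -0.67, HNRNPLL at -0.37, HNRNPM at -0.46, HNRNPR at -0.44 and HNRNPUL1 at -0.76. Library kit and medium changed with the background and cannot be told apart from it.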

How the results depend on the processing

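The calls of HNRNPF with STM2457 held in all 4 lines under every alternative, as did 22 of the 26 lower calls in LN229 and 8 of the 19 in LN229-R. At a threshold of 0.01 the number of genes called fell to 0 in LN229-R against LN229, 1 in U87 MG, 1 in U87-R, 9 in LN229-R and 8 for the difference between backgrounds. Without a variance trend it was 0 in LN229-R against LN229, 1 in U87-R and 13 in LN229-R, and with equal upper quartiles 7 in U87-R. With the replicate block it was 15 in U87-R and, where not every like-numbered pair deviated together, 14 in U87 MG (5 higher, 9 lower, beside 4137 of 16407 genes, with r of 0.186, 0.039 and 0.175 for the pairs) and 1 in U87-R against U87 MG (SRSF11, lower). Exchanging the names of LN229 and LN229-R, which by construction only turns the sign of every change, left 2 calls and turned SRSF11 to 0.49 and SRSF8 to 0.50. Leaving out 1 library at a time gave 0 to 3 calls in LN229-R against LN229, 1 to 4 in U87 MG, 1 to 4 in U87-R, 23 to 29 in LN229, 12 to 21 in LN229-R, 17 to 24 for the difference between backgrounds and 0 in U87-R against U87 MG. In U87 MG the count was 1 without STM2457 library 2 or 3 or DMSO library 2, and in U87-R 1 without the second STM2457 or the first or second DMSO library and 2 without the first STM2457 library. The median over the genes in U87-R was -0.08 with equal totals. The cause of these shifts was not tested. Of the values of named genes under alternatives, 562 kept the call or its absence, 47 lost the call and 8 gained it. The other 2 reversed under the exchange of names, as that setting fixes in advance. Among the 562, genes that had not passed could change sign. HNRNPA2B1 did so in U87 MG (-0.10 to 0.03) and in U87-R (-0.03 to 0.07). The 3 replicates per group and the unknown read depth limit the small changes that can be seen, and gene-level values do not resolve isoforms.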

Other observations

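Genes of 2 processes next to these families were also counted with STM2457. Of 10 nonsense-mediated decay genes, which act on poison-exon transcripts, 1 rose in U87 MG, 1 in U87-R, 4 in LN229 and 5 in LN229-R, and 0, 0, 2 and 1 fell in limma. Of all genes 13.6, 14.7, 49.7 and 38.6% passed in the same order of lines, so the counts in U87 MG, U87-R and LN229 lie near the background. That in LN229-R, 5 higher and 1 lower of 10, exceeds it by a few genes only and was not tested. SMG8, which restrains the kinase SMG1, rose in each line (0.73, 0.83, 0.87 and 0.84), UPF2 rose in LN229 (0.61) and LN229-R (0.75), and UPF3A fell there (-0.40 and -0.45).

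Of 11 m6A writer and eraser genes, 4, 4, 7 and 6 rose in that order and 0 fell, where 7.86, 8.46, 26.2 and 21.5% of all genes rose. RBM15B, which guides the writer complex to its targets, rose by 1.03, 1.22, 0.84 and 0.77, and METTL16, a separate methyltransferase, by 0.77, 0.68, 0.72 and 0.45. Of 7 m6A reader genes tested, 2, 2, 4 and 3 rose and 0, 2, 2 and 1 fell, beside the same shares of all genes. YTHDF2, which recruits mRNA decay, rose in each line (0.74, 0.79, 0.86 and 0.76), while IGF2BP2, which stabilises its targets, fell in U87-R (-0.33), LN229 (-1.003) and LN229-R (-0.82).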
